A study of Mus musculus with 20 samples.

Results

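Notch signalling in the mouse retina was described through 10 genes, which are the receptors *Notch1*, *Notch2* and *Notch4*, the ligands *Dll1*, *Dll4*, *Jag1* and *Jag2*, and the target genes *Hes1*, *Hey1* and *Heyl*. They were picked by symbol from the deposited tables and not by a cutoff on any value, though with earlier results of these data known. All 10 were among the 19368 genes listed for the OIR retinas and the 19102 genes listed for the P30 retinas, and all 10 passed the filter of a mean above 0.1 FPKM in every fit. The data are bulk RNA-Seq of whole retinas from C57BL/6J mice of both sexes, in 20 libraries that form 4 groups of 5. *Atf6*+/+ OIR and *Atf6*-/- OIR pups were kept in 75% oxygen from P7 to P12, the oxygen-induced retinopathy (OIR) model, and their retinas were taken at P17. The other 2 groups were *Atf6*+/+ mice at P30 that received 1 µL into the vitreous of each eye, either saline or 10 µM Ceapin-A7, a small molecule inhibitor of ATF6, and whose retinas were taken 24 h later. Both solutions held a trace of solvent, whose kind and amount differ between the labels and the study's methods, and the methods give the 2 groups different amounts. The *Atf6*-/- allele carries a premature stop codon in exon IV and acts in every cell of the animal, so no cell type is singled out. Each library is a whole retina in which vessels are a small part, and in bulk samples fewer cells of a type and less RNA per cell cannot be told apart.

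Notch receptors sit on the cell surface and are cut when a Delta-like or Jagged ligand on a neighbouring cell binds them. The freed intracellular part joins the DNA-binding protein RBPJ and switches on repressors of the HES and HEY families. In growing retinal vessels, DLL4 on the leading tip cell acts through NOTCH1 on its neighbours to limit sprouting, JAG1 is known to oppose DLL4 there, and NOTCH4 is largely found in endothelial cells. In the neural retina, *Hes1* and *Notch1* are known for keeping progenitors and Muller glia from becoming neurons.

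The promoters of 7 members were found in the RefSeq promoter table of GRCm38.p6, in 8 windows, because *Dll1* has 2 starts there. *Hes1*, *Hey1* and *Heyl* had no entry. The 250 bases before the start were searched on both strands for the RBPJ core TGGGAA and its longer form GTGGGAA, which contains the core. They were also searched for the N-box CACNAG that HES proteins bind, the ATF6 site TGACGTG and the longer ER stress element. The N-box letters were found in *Dll4*, 75 bases before the start, in *Notch1*, 108 bases before it, and in *Notch2*, 247 bases before it, and 36.7% of all 32851 promoter windows hold them. The other 4 motifs were not found in these windows of the members, and they occur in 21.6%, 5.42%, 1.65% and 0.113% of all windows in the order given. The windows with the N-box letters, in capitals, and that of *Notch4*, the receptor whose level differed most between the ages, are shown here 5′ to 3′ on the strand of the gene.
Dll4 promoter, chr2:119325534-119325783, plus strand: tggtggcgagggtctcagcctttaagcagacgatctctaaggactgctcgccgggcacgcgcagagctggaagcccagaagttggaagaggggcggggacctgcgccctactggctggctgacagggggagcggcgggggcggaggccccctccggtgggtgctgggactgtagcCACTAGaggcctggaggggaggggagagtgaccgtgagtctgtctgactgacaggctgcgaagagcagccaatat
Notch1 promoter, chr2:26503823-26504072, minus strand: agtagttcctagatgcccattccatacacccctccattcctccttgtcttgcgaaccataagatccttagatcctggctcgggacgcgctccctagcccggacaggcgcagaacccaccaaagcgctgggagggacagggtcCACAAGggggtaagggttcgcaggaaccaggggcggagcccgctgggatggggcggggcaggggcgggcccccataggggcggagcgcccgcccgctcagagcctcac
Notch2 promoter, chr3:98013288-98013537, plus strand: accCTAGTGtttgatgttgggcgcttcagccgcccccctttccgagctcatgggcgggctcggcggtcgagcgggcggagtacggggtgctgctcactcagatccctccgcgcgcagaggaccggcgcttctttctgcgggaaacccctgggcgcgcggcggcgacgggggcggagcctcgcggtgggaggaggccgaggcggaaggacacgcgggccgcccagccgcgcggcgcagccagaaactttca
Notch4 promoter, chr17:34564045-34564294, plus strand: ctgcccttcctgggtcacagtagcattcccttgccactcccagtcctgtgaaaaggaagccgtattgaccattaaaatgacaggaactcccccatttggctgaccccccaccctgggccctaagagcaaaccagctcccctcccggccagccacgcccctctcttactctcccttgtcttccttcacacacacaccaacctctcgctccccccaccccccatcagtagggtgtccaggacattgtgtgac

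Several facts of the libraries touch the results below. FPKM, the fragments of a gene divided by its transcript length and by the mapped fragments of the library, summed to between 410599 and 456250 per library. The smallest step between low values, as the mode over genes, was taken as the worth of 1 fragment. It was 1.05 times the usual step in *Atf6*-/- OIR replicate 4 and 1.4 times it in Ceapin-A7-treated replicate 3, and the same as it in the other 18. These steps rest on 8 of 54 and 8 of 66 genes in these 2 libraries, and on 6 of 70 in saline-treated replicate 2. Values are rounded to 2 decimals, and no read count is at hand. Glia and vessels were represented, with *Rlbp1* at 121.0 to 236.2 FPKM and *Cdh5* at 1.75 to 14.13 FPKM over the libraries. *Atf6* RNA was listed at 13.57 to 16.83 FPKM in *Atf6*-/- OIR and at 14.61 to 16.05 FPKM in *Atf6*+/+ OIR retinas, so the RNA level did not tell the genotypes apart, whereas the predicted gene *Gm29733* was at 3.12 to 6.89 FPKM in the former and at most 0.21 FPKM in the latter. The OIR libraries differed in how values ran with the GC content of transcripts. The Spearman correlation between a gene's deviation and its GC content was 0.33 to 0.386 in *Atf6*+/+ replicates 1, 2, 3 and 5 and 0.415 in *Atf6*-/- replicate 5, and it was −0.156 to −0.552 in *Atf6*-/- replicates 1 to 4 and −0.31 in *Atf6*+/+ replicate 4. These 2 libraries therefore went against their own groups, and OIR results are given with and without them. Genes of tissues next to the retina differed as well. Lens fibre genes summed to 6.19 to 9.9 FPKM in *Atf6*-/- OIR and 9.49 to 530.6 FPKM in *Atf6*+/+ OIR retinas, with 6 of the 13 genes at 0 in at least 1 library, and pigment epithelium genes summed to 142.9 to 468.5 and 63.49 to 207.6 FPKM. At an unadjusted p of 0.05 or less in OIR, 6.94% of all genes were higher and 5.81% lower. At that p, 9 of 12 lens genes tested were lower and 6 of 10 pigment epithelium genes higher, as were 3 of 10 rod, 2 of 12 Muller glia and 1 of 7 ciliary body and iris genes, while 2 of 12 microglia and macrophage and 0 of 5 astrocyte genes were lower, and none of these passed adjustment. Their part in the members' values was not tested.

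The ligand *Jag1* was the highest of the 10 members in all 4 groups, and the lowest places were taken by *Heyl*, *Notch4* and *Dll4*, whose order changed between the ages. In *Atf6*+/+ OIR retinas, *Jag1* was at 18.8 ± 1.51 FPKM (SD, n = 5), and the values of *Jag1*, *Hes1* at 17.3 ± 1.5 FPKM and *Jag2* at 15.2 ± 1.34 FPKM overlapped with their neighbour in this order. *Hey1* followed at 10.3 ± 1.18 FPKM, apart from *Jag2* above it and from *Notch1* below it, which was at 5.95 ± 1.32 FPKM. From *Notch1* down to *Heyl* at 1.36 ± 0.302 FPKM, every neighbour in the order overlapped. In saline-treated retinas at P30, *Jag1* at 22.5 ± 2.92 FPKM stood apart from all others, and *Jag2* at 12.7 ± 1.71 FPKM, *Hes1* at 11.0 ± 2.02 FPKM and *Hey1* at 9.38 ± 0.637 FPKM overlapped in turn. *Notch4* at 0.776 ± 0.126 FPKM, *Heyl* at 0.706 ± 0.154 FPKM and *Dll4* at 0.698 ± 0.221 FPKM formed the bottom of that order, apart from *Notch2* above them at 3.53 ± 0.437 FPKM. *Notch2* was the steadiest receptor, with group means from 3.53 to 3.63 FPKM. The spread within a group differed between members and groups. The coefficient of variation was highest for *Notch1* in *Atf6*-/- OIR (32.1%), *Dll4* in saline-treated retinas (31.7%) and *Heyl* in *Atf6*-/- OIR (31.4%), and lowest for *Jag2* in Ceapin-A7-treated retinas (2.87%) and *Hey1* in *Atf6*-/- OIR (2.88%). For *Notch1* it was 5.06% in Ceapin-A7-treated retinas.

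**Figure D1:**
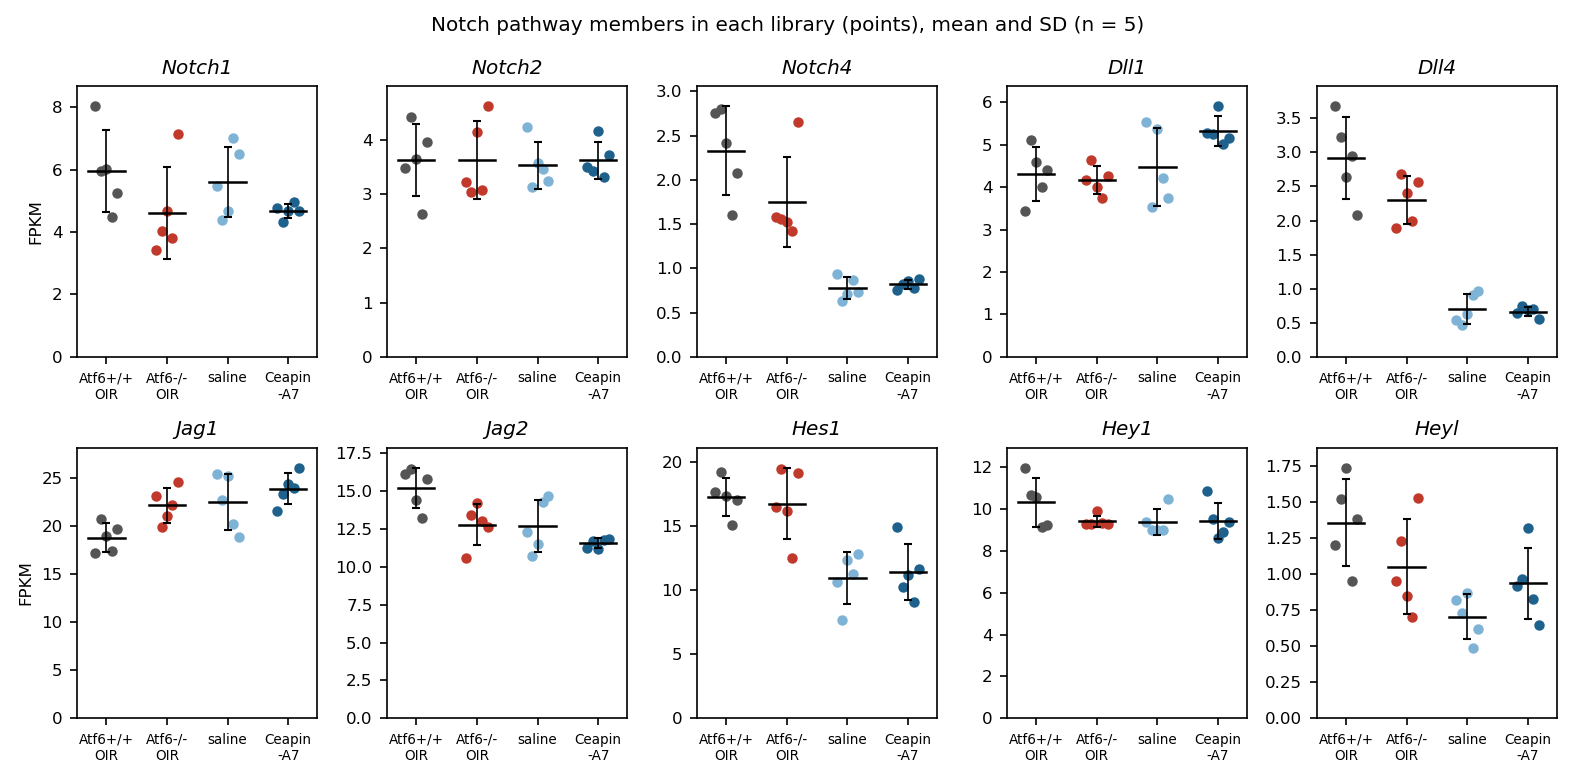
Level of each of the 10 members in FPKM (vertical axes, each from 0) in the 5 libraries of each group (points), with the group mean (bar) and SD (whisker). *Dll4* and *Notch4* were higher in all 10 OIR libraries than in all 10 P30 libraries, and the groups within each age overlapped for every member.

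The largest differences among the members were between the OIR retinas at P17 and the saline-treated retinas at P30, which set a retina with growing vessels beside a grown one. Age, oxygen exposure, injection and experiment all differ between these groups and cannot be told apart. In a limma fit of all 20 libraries, 6 members had a Benjamini-Hochberg adjusted p under 0.05, 5 of them higher in *Atf6*+/+ OIR, where 59.0% of all 15628 genes tested were called (29.6% higher and 29.4% lower). The median log2 difference was 0.18 over the members and 0.01 over all genes tested. For 4 members the groups did not overlap, all with OIR higher, beside 41.3% of all genes and 19.8% with OIR higher.

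*Dll4* (NCBI gene 54485), the tip cell ligand, showed the largest difference. It was at 3.68, 3.23, 2.64, 2.95 and 2.08 FPKM in *Atf6*+/+ OIR replicates 1 to 5, and at 0.54, 0.46, 0.63, 0.9 and 0.96 FPKM in saline-treated replicates 1 to 5. The lowest OIR library was above the highest saline library, and the *Atf6*-/- OIR libraries, at 1.89 to 2.68 FPKM, were above all 10 P30 libraries as well. The mean was 4.18 times as high, and the log2 difference was 1.92 (SE 0.17, adjusted p = 8.94e-09 from limma). *Notch4* (NCBI gene 18132), the endothelial receptor, was at 2.76, 2.8, 2.42, 1.6 and 2.08 FPKM in *Atf6*+/+ OIR and at 0.94, 0.63, 0.71, 0.87 and 0.73 FPKM in saline-treated retinas. These groups did not overlap either, and the log2 difference was 1.44 (SE 0.17, adjusted p = 3.96e-07 from limma). The other receptors did not pass the test. *Notch1* had a log2 difference of 0.07 (95% interval −0.30 to 0.43, adjusted p = 0.765 from limma), which turned to −0.09 after correction for GC content, and *Notch2* had one of 0.01 (95% interval −0.28 to 0.30, adjusted p = 0.946 from limma), which turned to −0.02 under TPM scaling.

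Among the other ligands, *Jag1* and *Jag2* went in opposite directions and *Dll1* did not pass the test. *Jag1* (NCBI gene 16449) was lower in *Atf6*+/+ OIR, at 17.18 to 20.76 FPKM against 18.88 to 25.41 FPKM, with a log2 difference of −0.27 (SE 0.09, adjusted p = 0.015 from limma). *Jag2* (NCBI gene 16450) was higher, at 13.23 to 16.47 FPKM against 10.7 to 14.64 FPKM, with a log2 difference of 0.25 (SE 0.08, adjusted p = 0.015 from limma). Both pairs of groups overlapped. The call of *Jag2* ended with TPM scaling, at a log2 difference of 0.22 (adjusted p = 0.0613 from limma), with the correction for GC content, at 0.05 (adjusted p = 0.605 from limma), and without saline-treated replicate 2, at 0.20 (adjusted p = 0.0528 from limma). That of *Jag1* ended when the GC correction was applied without *Atf6*+/+ OIR replicate 4 and *Atf6*-/- OIR replicate 5, at −0.20 (adjusted p = 0.0549 from limma). For *Dll1*, the log2 difference was −0.06 (95% interval −0.31 to 0.19, adjusted p = 0.68 from limma).

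Of the 3 targets among the members, *Hes1* and *Heyl* were higher in OIR, whereas *Hes5*, described with the further pathway genes, was lower. *Hes1* (NCBI gene 15205), the repressor shared by Muller glia and vessel cells, was at 17.67, 19.24, 17.35, 15.05 and 17.01 FPKM in *Atf6*+/+ OIR and at 10.66, 7.7, 12.38, 11.26 and 12.81 FPKM in saline-treated retinas. The groups did not overlap, and the log2 difference was 0.65 (SE 0.14, adjusted p = 5.53e-04 from limma). *Heyl* (NCBI gene 56198), which is known from mural cells, was at 1.2, 1.52, 1.74, 0.95 and 1.38 FPKM against 0.82, 0.73, 0.87, 0.49 and 0.62 FPKM. Again no library of the lower group reached the higher group, and the log2 difference was 0.84 (SE 0.21, adjusted p = 0.00192 from limma). *Hey1* was at 9.12 to 11.98 FPKM against 9.01 to 10.48 FPKM, a log2 difference of 0.11 (95% interval −0.05 to 0.28, adjusted p = 0.211 from limma). Markers of the vessel wall moved with this comparison: 14 of 20 endothelial genes were called higher and 2 lower, and their summed level was 200.8 to 298.9 FPKM in *Atf6*+/+ OIR and 125.4 to 155.4 FPKM in saline-treated retinas. This sum holds the abundant gene *Kdr*, with means of 39.4 and 38.1 FPKM. For mural genes, 11 of 12 were called higher, with a summed level of 211.5 to 304.7 against 35.79 to 49.34 FPKM. In OIR this sum rests mainly on *Ndufa4l2*, with means of 109 and 3.9 FPKM, and on *Rgs5*, a pericyte marker, with means of 83.2 and 17.6 FPKM. The median log2 difference was 1.47 over the endothelial and 1.66 over the mural genes, beside 0.01 over all genes tested. Microglia and macrophage genes (11 of 12 called higher) and astrocyte genes (4 of 5 called higher) moved the same way, and Muller glia genes did not move together (4 called higher and 3 lower of 12). Beside 29.6% of all genes, 4 of 7 ciliary body and iris genes and 3 of 10 rod genes were called higher. Beside 29.4% of all genes, 6 of 11 pigment epithelium genes and 3 of 13 lens fibre genes were called lower. Their part in the members' differences was not tested.

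**Figure D2:**
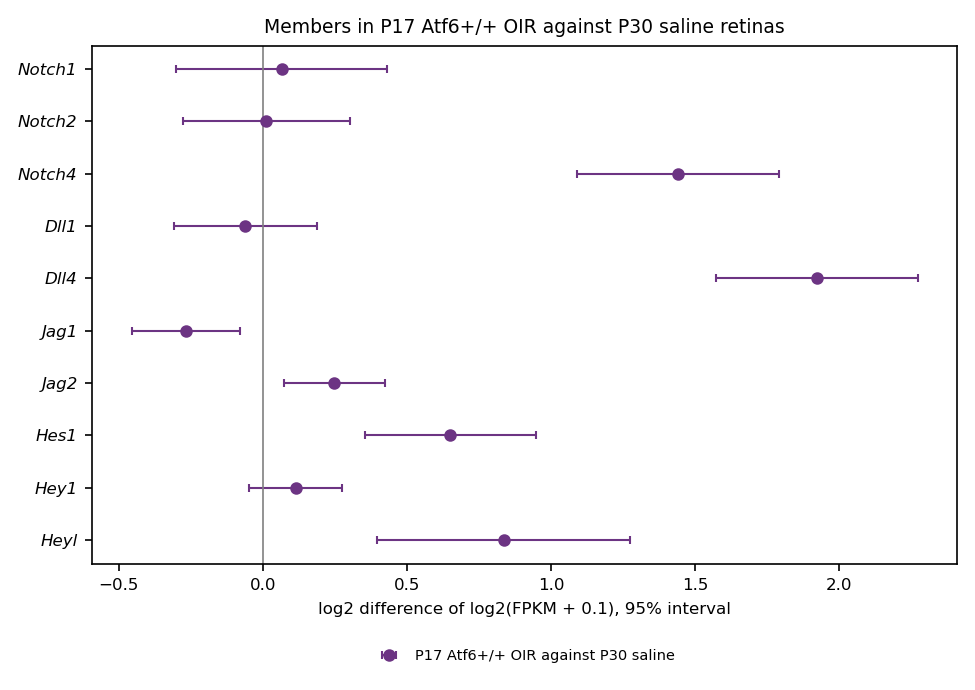
Log2 difference of each member, P17 *Atf6*+/+ OIR minus P30 saline, on the log2(FPKM + 0.1) scale (horizontal axis), with its 95% interval from limma. *Dll4* at 1.92 and *Notch4* at 1.44 lie farthest to the right, followed by *Heyl* at 0.84 and *Hes1* at 0.65.

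The OIR experiment asked how retinas without ATF6, an activator of the unfolded protein response, differ from *Atf6*+/+ retinas while vessels grow. No member passed the test, where 5 of 15704 genes (0.0318%) had an adjusted p under 0.05 in limma with Benjamini-Hochberg adjustment. At an unadjusted p of 0.05 or less, 2 members were called, *Jag1* higher and *Jag2* lower, beside 12.7% of all genes (6.94% higher and 5.81% lower). The adjusted p of the members lay between 0.361 and 0.971. The log2 fold change was below 0 for 8 of 10 members, with a median of −0.17 over the members and 0.003 over all genes tested. No member had groups that did not overlap, beside 1.8% of all genes.

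The receptors *Notch1* and *Notch4* had lower means in *Atf6*-/- OIR retinas, with wide intervals. *Notch1* (NCBI gene 18128) was at 8.04, 5.97, 6.01, 4.49 and 5.26 FPKM in *Atf6*+/+ and at 3.41, 4.02, 4.67, 3.82 and 7.13 FPKM in *Atf6*-/- OIR replicates 1 to 5. *Atf6*-/- replicate 5 was the exception among its group, above 4 of the 5 *Atf6*+/+ libraries, and *Atf6*+/+ replicate 4 was the lowest of its own. The log2 fold change was −0.37 (95% interval −0.82 to 0.08, adjusted p = 0.439 from limma), and an exact two-sided permutation test of the group means gave p = 0.175. *Notch4* was at 1.58, 1.56, 1.52, 1.42 and 2.65 FPKM in *Atf6*-/- OIR, to be set beside the *Atf6*+/+ values above. In FPKM, *Atf6*-/- replicate 5 was higher than 3 of the *Atf6*+/+ libraries, while the other 4 were below all of them. On the scaled log2 values that were tested, 1 *Atf6*-/- library was above all *Atf6*+/+ libraries and 3 were below all of them. The log2 fold change of *Notch4* was −0.39 (95% interval −0.83 to 0.05, adjusted p = 0.419 from limma, exact permutation p = 0.135). *Notch2* (NCBI gene 18129) was at 2.64 to 4.42 and 3.04 to 4.62 FPKM, a log2 fold change of 0.01 (95% interval −0.35 to 0.38, adjusted p = 0.971 from limma) that was −0.003 with FPKM as deposited.

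Among the ligands, *Jag1* and *Jag2* had the smallest p-values of the members. *Jag1* was at 17.18, 20.76, 18.94, 17.45 and 19.71 FPKM in *Atf6*+/+ OIR and at 23.15, 19.93, 21.01, 22.16 and 24.63 FPKM in *Atf6*-/- OIR. All but replicate 2 of the *Atf6*-/- libraries were above every *Atf6*+/+ library. The means were 18.8 ± 1.51 and 22.2 ± 1.83 FPKM (SD, n = 5 each). On the log2 scale this fold change was 0.25 (SE 0.09, adjusted p = 0.361 from limma, exact permutation p = 0.0317). Without *Atf6*+/+ replicate 4 and *Atf6*-/- replicate 5 it was 0.16 (unadjusted p = 0.0535 from limma). With the GC correction added it was 0.14 (unadjusted p = 0.0802 from limma). *Jag2* was at 16.1, 16.47, 14.43, 13.23 and 15.77 FPKM in *Atf6*+/+ and at 10.55, 13.42, 14.18, 13.02 and 12.65 FPKM in *Atf6*-/- OIR. Each *Atf6*-/- library was below the *Atf6*+/+ mean, and the ranges overlapped between 13.23 and 14.18 FPKM. Its log2 fold change was −0.23 (SE 0.09, adjusted p = 0.364 from limma, exact permutation p = 0.0635), and with the correction for GC content it was −0.08 (adjusted p = 0.757 from limma). The transcripts of these ligands differ in GC content, at 48.8% for *Jag1* and 61.9% for *Jag2*. Within a library, the ratio of *Jag2* to *Jag1* was 0.758 to 0.937 in *Atf6*+/+ OIR and 0.456 to 0.675 in *Atf6*-/- OIR, a quantity chosen after the values were seen and given without a test.

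*Dll4* was at 1.89, 2.68, 2.4, 1.99 and 2.56 FPKM in *Atf6*-/- OIR retinas, all below the *Atf6*+/+ mean of 2.92 ± 0.604 FPKM (SD, n = 5), but only 2 of them below the lowest *Atf6*+/+ library. The log2 fold change was −0.30 (95% interval −0.63 to 0.03, adjusted p = 0.417 from limma, exact permutation p = 0.111). Without *Atf6*+/+ replicate 4 and *Atf6*-/- replicate 5 it was −0.36 (adjusted p = 0.155 from limma). With all libraries and the GC correction it was −0.21 (adjusted p = 0.596 from limma). *Dll1* (NCBI gene 13388) was at 3.44 to 5.12 and 3.74 to 4.65 FPKM, a log2 fold change of −0.02 (95% interval −0.26 to 0.21, adjusted p = 0.93 from limma) that turned to 0.05 with the GC correction. Of the targets, *Hes1* was at 15.05 to 19.24 and 12.52 to 19.49 FPKM, with a log2 fold change of −0.04 (95% interval −0.30 to 0.23, adjusted p = 0.893 from limma), which turned to 0.07 without *Atf6*-/- OIR replicate 4 and to 0.004 without *Atf6*+/+ OIR replicate 2. *Hey1* (NCBI gene 15213) was at 9.12 to 11.98 and 9.26 to 9.89 FPKM, a log2 fold change of −0.11 (95% interval −0.29 to 0.08, adjusted p = 0.547 from limma). *Heyl* was at 0.95, 1.23, 0.85, 0.7 and 1.53 FPKM in *Atf6*-/- OIR, a log2 fold change of −0.34 (95% interval −0.81 to 0.12, adjusted p = 0.471 from limma, exact permutation p = 0.183). Most vessel wall markers had lower values in the same retinas. Of 20 endothelial genes, 16 had a log2 fold change below 0, and 7 lower and 2 higher reached an unadjusted p of 0.05. Of 12 mural genes, 12 were below 0 and 5 reached it, beside 5.81% of all genes lower and 6.94% higher, and none was called after adjustment. Their summed levels were 174.8 to 250.3 FPKM (endothelial) and 145.5 to 240.5 FPKM (mural) in *Atf6*-/- OIR, beside the *Atf6*+/+ ranges above, with *Esm1* and *Cnn1* at 0 in at least 1 of the 20 libraries. The part of these markers in the members' values was not tested.

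**Figure D3:**
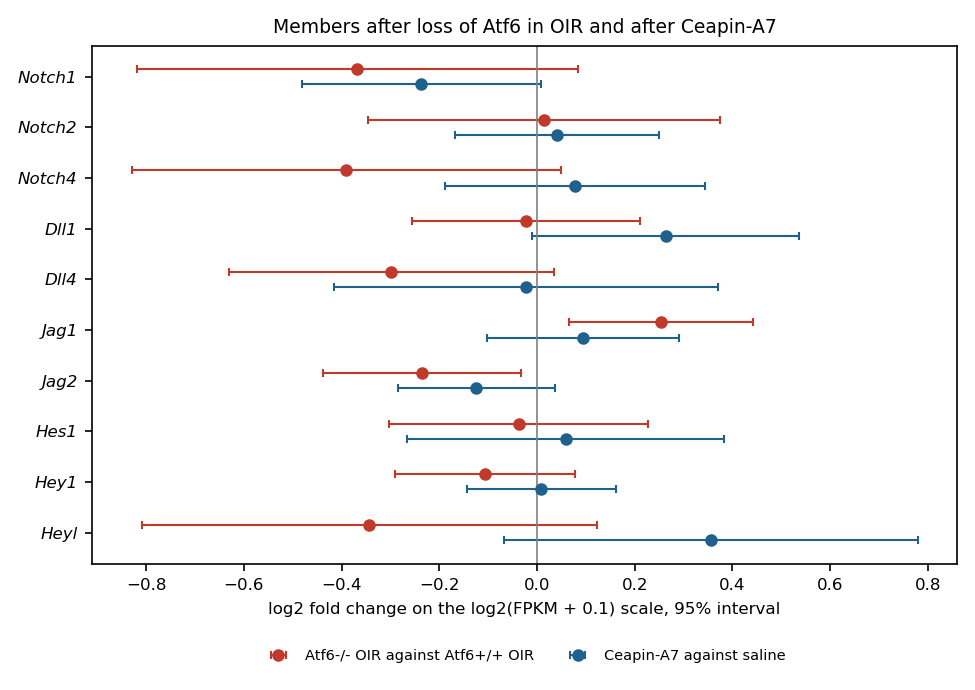
Log2 fold change of each member on the log2(FPKM + 0.1) scale (horizontal axis) with its 95% interval from limma, for *Atf6*-/- OIR against *Atf6*+/+ OIR (red) and for Ceapin-A7 against saline (blue). Only the OIR intervals of *Jag1* (0.07 to 0.44) and *Jag2* (−0.44 to −0.03) leave out 0, and neither gene passed adjustment over all genes.

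The OIR values of *Notch1* and *Notch4* ran with the GC trend of the library. The 5 OIR libraries with a positive trend, which are *Atf6*+/+ replicates 1, 2, 3 and 5 and *Atf6*-/- replicate 5, held *Notch4* at 2.08 to 2.8 FPKM, and the other 5 held it at 1.42 to 1.6 FPKM. For *Notch1* the same sets were at 5.26 to 8.04 and 3.41 to 4.67 FPKM, with no overlap, whereas for *Dll4*, *Jag1* and *Hes1* they overlapped. These sets were formed from a trend computed on the same expression values, so the split is a description and not a test. The share of all genes that separate in this way is not given. The transcript GC content was 61.2% for *Notch4* and 57.1% for *Notch1*, beside a median of 50% over all genes tested. Removing each library's trend with GC content brought the log2 fold change of *Notch4* to −0.24 (adjusted p = 0.539 from limma) and that of *Notch1* to −0.26 (adjusted p = 0.582 from limma). Without *Atf6*+/+ replicate 4 and *Atf6*-/- replicate 5, *Notch4* was at −0.69 (adjusted p = 0.00306 from limma), *Notch1* at −0.66 (adjusted p = 0.00742), *Heyl* at −0.62 (adjusted p = 0.025) and *Jag2* at −0.31 (adjusted p = 0.0263), and 24.9% of all genes were called. These libraries were picked after the data were seen, for going against their group, and the GC trend and the genotype then fall together, so this fit is a description and not a test of genotype. With the same libraries left out and the GC trend removed, *Notch4* was at −0.41 (adjusted p = 0.0324 from limma) and *Notch1* at −0.47 (adjusted p = 0.0447). In that fit *Heyl* was at −0.47 (adjusted p = 0.0813 from limma), *Jag2* was at −0.02, and 12.2% of all genes were called. With limma's array weights, which give libraries unlike their group less weight, *Notch1*, *Notch4*, *Jag2* and *Heyl* had an adjusted p of 0.0271 to 0.0464, beside 17.6% of all genes.

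**Figure D4:**
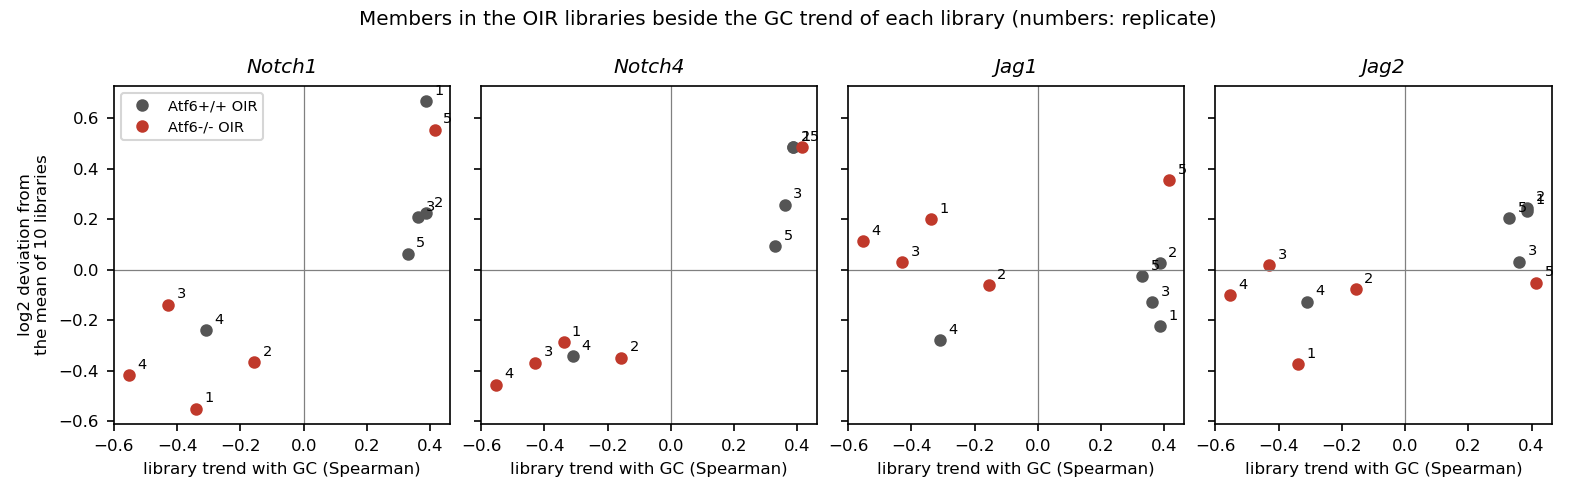
Log2 deviation of 4 members from their mean over the 10 OIR libraries (vertical axis) against the library's Spearman correlation of deviations with transcript GC content (horizontal axis). Numbers are replicates, and *Atf6*-/- replicate 5 and *Atf6*+/+ replicate 4 lie on the side of the other genotype, where *Notch1* and *Notch4* follow the trend and *Jag1* does not.

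**Figure D5:**
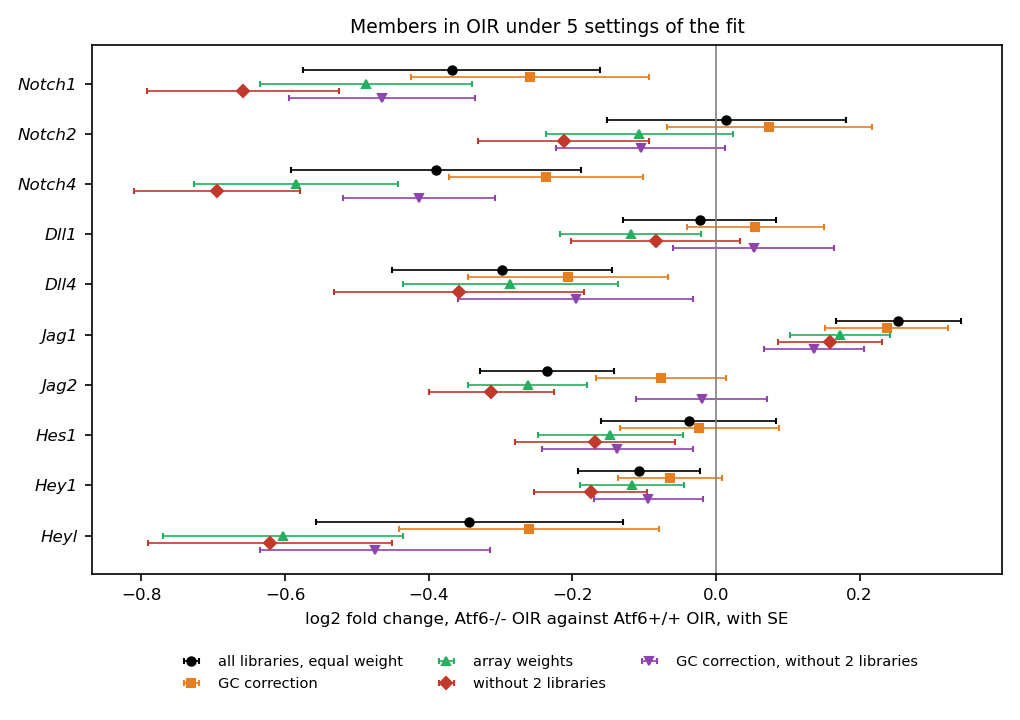
Log2 fold change of each member, *Atf6*-/- OIR against *Atf6*+/+ OIR (horizontal axis), with its SE, under 5 settings, where the 2 libraries left out are *Atf6*+/+ replicate 4 and *Atf6*-/- replicate 5. *Notch4* ranges from −0.24 with the GC correction to −0.69 without these libraries. *Jag1* stays above 0 in all 5, from 0.25 with all libraries to 0.14 with the GC correction and without these libraries.

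Ceapin-A7 was given to P30 retinas to inhibit ATF6 for 24 h outside the OIR model. No member was called, where 0 of 15408 genes (0.0%) had an adjusted p under 0.05 in limma and 1595 (10.4%) an unadjusted p of 0.05 or less. No member reached that unadjusted p. Log2 fold changes were above 0 for 7 members and below 0 for 3, with a median of 0.05 over the members and 0.001 over all genes tested. No member had groups that did not overlap, beside 1.47% of all genes. In the fit of all 20 libraries, where 1 gene was called, 1 member reached an unadjusted p of 0.05, beside 8.69% of all genes.

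The smallest p-values after Ceapin-A7 were those of *Notch1* and *Dll1*. *Notch1* was at 5.47, 4.39, 4.67, 7.02 and 6.49 FPKM in saline-treated and at 4.77, 4.31, 4.66, 4.96 and 4.66 FPKM in Ceapin-A7-treated replicates 1 to 5. All treated libraries were below the saline mean, but only 1 was below the lowest saline library. Treated minus saline, the log2 fold change was −0.24 (95% interval −0.48 to 0.008, adjusted p = 0.483 from limma, exact permutation p = 0.111). *Dll1*, the ligand of neural progenitors, was at 5.53, 3.54, 5.38, 4.21 and 3.75 FPKM in saline-treated and at 5.28, 5.24, 5.91, 5.01 and 5.16 FPKM in Ceapin-A7-treated retinas. All treated values were above the saline mean, while saline replicates 2, 4 and 5 were below every treated library and replicates 1 and 3 were within the treated range, with a log2 fold change of 0.26 (95% interval −0.01 to 0.54, adjusted p = 0.483 from limma, exact permutation p = 0.127). *Heyl* was at 0.92, 0.97, 1.32, 0.83 and 0.65 FPKM after Ceapin-A7, where replicate 3 is the library with the larger step between low values, a log2 fold change of 0.36 (95% interval −0.07 to 0.78, adjusted p = 0.515 from limma).

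The other members were close to the saline level. *Dll4* was at 0.56 to 0.74 FPKM after Ceapin-A7 and 0.46 to 0.96 FPKM after saline, a log2 fold change of −0.02 (95% interval −0.41 to 0.37) that turned to 0.03 with array weights. *Notch4* was at 0.75 to 0.88 FPKM against 0.63 to 0.94 FPKM, a log2 fold change of 0.08 (95% interval −0.19 to 0.34). *Jag1* was at 21.62 to 26.1 FPKM against 18.88 to 25.41 FPKM, a log2 fold change of 0.09 (95% interval −0.10 to 0.29), and *Jag2* was at 11.16 to 11.85 FPKM against 10.7 to 14.64 FPKM, a log2 fold change of −0.12 (95% interval −0.28 to 0.04). *Hes1* was at 9.07 to 14.89 FPKM against 7.7 to 12.81 FPKM, a log2 fold change of 0.06 (95% interval −0.27 to 0.38) that turned to −0.05 without Ceapin-A7-treated replicate 1 and also without saline-treated replicate 2. *Hey1* and *Notch2* had log2 fold changes of 0.01 (95% interval −0.14 to 0.16) and 0.04 (95% interval −0.17 to 0.25), and *Hey1* turned to −0.03 under TPM scaling. The widest of these intervals was that of *Dll4* and the narrowest that of *Hey1*, and equal levels are not shown. Endothelial genes summed to 121.4 to 140.9 FPKM and mural genes to 39.67 to 93.99 FPKM in Ceapin-A7-treated retinas. Log2 fold changes were above 0 for 10 of 12 mural, 10 of 10 rod, 13 of 13 lens fibre and 8 of 12 Muller glia genes, and for 9 of 20 endothelial genes. Lens fibre genes summed to 92.4 to 9632 FPKM after Ceapin-A7 and 8.93 to 5350 FPKM after saline. At an unadjusted p of 0.05 or less, 3 endothelial, 2 Muller glia, 1 mural, 1 rod and 1 microglia and macrophage gene were higher, beside 10.4% of all genes in either direction. Lower at that p were 1 of 12 Muller glia, 1 of 5 astrocyte and 1 of 7 ciliary body and iris genes. Of 11 pigment epithelium genes, 2 were higher and 2 lower, and none of the genes in these lists passed adjustment. The part of these genes in the members' values was not tested.

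The effect of *Atf6* loss minus that of Ceapin-A7 was tested in the fit of all 20 libraries. No member was called, where 5 of 15628 genes (0.032%) were. *Heyl* had the largest difference, −0.70 (95% interval −1.32 to −0.08, adjusted p = 0.509 from limma), and was the 1 member at an unadjusted p of 0.05 or less, beside 9.19% of all genes and 3.79% with a difference below 0. For *Notch4* the difference was −0.47 (95% interval −0.96 to 0.03, adjusted p = 0.562 from limma). The 2 OIR libraries that went against their group were picked after the data were seen, so fits without them are descriptions. Without these libraries, the differences of *Heyl* and *Notch4* were −0.97 (adjusted p = 0.0296 from limma) and −0.76 (adjusted p = 0.00581), and 11.0% of all genes were called. With the GC correction added, they were −0.84 (adjusted p = 0.0897 from limma) and −0.52 (adjusted p = 0.0669), with 3.21% of all genes called. Array weights, with 4.76% called, gave −0.83 for *Heyl* (adjusted p = 0.067 from limma) and −0.66 for *Notch4* (adjusted p = 0.0374).

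Of 42 further pathway genes, which include ligand processors, glycosyltransferases, proteases, cofactors and feedback inhibitors, all 42 were tested in OIR and 41 in P30 retinas. In OIR, none had an adjusted p under 0.05 in limma, and 1 higher and 5 lower reached an unadjusted p of 0.05, beside 12.7% of all genes. The smallest p-values belonged to *Dll3*, a ligand that inhibits Notch within the cell, *Mfng*, a glycosyltransferase that modifies Notch receptors, and *Kat2b*, a histone acetyltransferase. *Dll3* was at 0.63 ± 0.156 FPKM in *Atf6*+/+ and 0.38 ± 0.0543 FPKM in *Atf6*-/- OIR (SD, n = 5 each), and limma put its log2 fold change at −0.57, with an adjusted p of 0.358. *Mfng* had a log2 fold change of −0.25 and *Kat2b* one of 0.19, both with an adjusted p of 0.358. After Ceapin-A7, none of 41 had an adjusted p under 0.05, and 1 higher and 5 lower reached an unadjusted p of 0.05, beside 10.4% of all genes. *Nrarp*, a feedback inhibitor that Notch itself induces, had a log2 fold change of 0.29 and the cofactor *Maml3* one of −0.25, each with an adjusted p of 0.472 from limma. In OIR *Nrarp* was at −0.25 (adjusted p = 0.39 from limma). In the difference of effects none of the 42 genes was called. There 1 gene above and 3 below 0 reached an unadjusted p of 0.05, beside 9.19% of all genes. The smallest p was that of *Nrarp*, with a difference of −0.53 (adjusted p = 0.391 from limma).

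Between P17 *Atf6*+/+ OIR and P30 saline-treated retinas, 16 of the 42 genes were called higher and 13 lower, beside 29.6% and 29.4% of all genes. *Mib1*, the ubiquitin ligase that ligands need for signalling, was lower in OIR, at 7.71 ± 0.799 against 16.4 ± 1.62 FPKM (SD, n = 5 each), a log2 difference of −1.10 (adjusted p = 6.13e-10 from limma). *Nrarp* was higher, at 9.68 ± 1.07 against 4.0 ± 0.46 FPKM, a log2 difference of 1.24 (adjusted p = 1.14e-08 from limma). The gamma-secretase subunit *Aph1a* was lower by a log2 difference of −0.78 and the O-fucosyltransferase *Pofut1* by −0.59, and the corepressor *Cir1* was higher by 0.72 (adjusted p = 1.19e-08, 2.30e-08 and 1.57e-08 from limma). The DNA-binding partner *Rbpj* was at 9.03 ± 0.616 FPKM in *Atf6*+/+ OIR and 10.2 ± 0.867 FPKM in saline-treated retinas, a log2 difference of −0.19 (adjusted p = 0.0101 from limma), and it is named here after its values were seen. So is *Hes5*, another target of the HES family, which was lower in OIR, at 2.37 ± 0.498 against 5.33 ± 1.02 FPKM, a log2 difference of −1.16 (adjusted p = 1.37e-05 from limma).

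After each value was centred on its group mean, the members varied together in part over the 20 libraries. The highest Pearson correlations were those of *Notch1* with *Notch4* (0.803) and *Notch2* with *Notch4* (0.778), and the lowest was that of *Dll4* with *Jag1* (−0.537). These are descriptions over libraries that share the GC trend described above. The genes most like *Dll4* among 12435 genes with a mean of at least 1 FPKM in each group were *Tnfaip1* (r = 0.885), *Ets2* (r = 0.851) and *Clic4* (r = 0.85). For *Notch4* they included *Actn1* (r = 0.937) and *Creb3l2* (r = 0.928), for *Hes1* they were *F11r* (r = 0.827), *Fzd8* (r = 0.782) and *Pnpla2* (r = 0.778), and for *Jag1* they were *Esrrb* (r = 0.895), *Kcnj14* (r = 0.855) and *Katnip* (r = 0.848), each over 20 libraries.

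The members were also set against library scores of the endothelial, mural and Muller glia lists, 30 relations in all, by a permutation test within groups. By Pearson's r, 4 relations had a Benjamini-Hochberg adjusted permutation p under 0.05. They were *Notch1* with mural genes (r = 0.702, p = 0.00127, adjusted p = 0.0381), *Notch4* with endothelial genes (r = 0.69, p = 0.00549, adjusted p = 0.0412), *Notch4* with mural genes (r = 0.657, p = 0.00478, adjusted p = 0.0412) and *Dll4* with mural genes (r = 0.562, p = 0.00479, adjusted p = 0.0412). Spearman's coefficient for these was 0.568, 0.621, 0.561 and 0.568, with permutation p = 0.0161, 0.0139, 0.0151 and 0.00875 and an adjusted p of 0.0825 in each case. Without the 2 libraries farthest from the median score, r was 0.531, 0.628, 0.592 and 0.506 over 18 libraries, with unadjusted permutation p of 0.0236, 0.0205, 0.0128 and 0.0244, and no relation passed adjustment (adjusted p = 0.147 for each of the 4). Within the 10 OIR libraries r was 0.908, 0.781, 0.744 and 0.846, with adjusted permutation p of 0.0136, 0.0517, 0.117 and 0.0252, so both relations of *Notch4* did not pass there. *Heyl* and *Hes1* with endothelial genes did (r = 0.877 and 0.753, adjusted permutation p = 0.0136 and 0.0264). Within the P30 libraries r was 0.177, 0.287, 0.452 and 0.228. With the GC trend removed r was 0.68, 0.5, 0.626 and 0.446, and no relation passed. *Jag1* and *Dll1* ran with the Muller glia score (r = 0.552 and 0.545) and *Dll4* against it (r = −0.57), with adjusted permutation p of 0.094, 0.129 and 0.104.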

How the data were processed

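The 20 bulk RNA-Seq libraries come from whole mouse retinas, and groups were taken from the sample labels, with the ages and the injection from the study's methods. The authors used GRCm39 as the reference, HISAT2 (v2.0.4) as the aligner of the paired-end reads, RSEM (v1.2.18) for gene levels and DESeq2 (v1.4.5) for their own tests, and deposited FPKM to 2 decimals. The deposited FPKM are not counts, so no count model was fitted. The lowest value of a member was 0.46 FPKM, for which rounding amounts to 1.09%.

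Each library was scaled by its median-of-ratios factor, and log2(FPKM + 0.1) of genes with a mean above 0.1 FPKM entered limma (3.58.1, trended eBayes) under R 4.3.3, with Benjamini-Hochberg adjustment over all genes tested and a call at an adjusted p under 0.05. Fold changes on this scale understate the change of low genes. Each experiment was fitted on its own 10 libraries, and the comparison of ages and the difference of effects on all 20. For each member in each experiment, 20 tests in all, an exact two-sided permutation test over the 252 arrangements was computed with scipy (version 1.17.1), for which the smallest p is 0.00794. Correlations were tested with 100000 permutations within groups. The methods draw mice from several litters, but nothing ties a library to an animal or litter, so p-values measure the spread between these samples, which may be technical.

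The members, the 42 further pathway genes and the cell type lists were chosen with earlier results of these data known. Named in the text are all members, up to 5 called or 3 leading genes of the further pathway list per comparison, abundant marker genes and the 3 genes most like *Dll4*, *Notch4*, *Hes1* and *Jag1*. *Rbpj*, *Hes5*, *Cdh5*, *Cnn1*, *Atf6* and *Gm29733* were chosen after their values were seen. Some genes that this rule names are not reported here. GC content came from a GRCm38 annotation by NCBI gene number, or by symbol where the number found no entry, for 98.4% of genes in OIR. Promoter letters are from RefSeq on GRCm38.p6, another build than that of the reads. The fits were tested on simulated data. Alternatives were other pseudocounts, filters, scalings, weights, a replicate block, a GC correction and leaving out libraries. The fits without *Atf6*+/+ OIR replicate 4 and *Atf6*-/- OIR replicate 5, and the GC correction of the correlations, were chosen after seeing the data.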

Additional observations from a re-analysis of the deposited data

Results flagged for a closer look

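In 40 sets of 5 libraries, each member in each group, the highest or lowest library was tested for a gap to its neighbour that is large for the range of its group, and chance marks about 1 set in 20. *Notch4* at 2.65 FPKM in *Atf6*-/- OIR replicate 5 stood above the other 4 libraries of its group, with a gap of 0.87 of the range. *Hey1* at 9.89 FPKM in *Atf6*-/- OIR replicate 3 stood above its group, with a gap of 0.921 of a narrow range. *Hey1* at 10.48 FPKM in saline-treated replicate 5 stood above its group, with a gap of 0.741 of the range. *Atf6*-/- OIR replicate 5 was the highest of its group for 5 members, and *Atf6*+/+ OIR replicate 4 the lowest of its group for 7 members. The cause was not tested.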

How the results depend on the processing

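No member had an adjusted p under 0.05 in OIR, after Ceapin-A7 or in the difference of effects when any 1 library was left out, and *Dll4*, *Notch4*, *Hes1* and *Heyl* kept their direction and call between the ages under each alternative run. Array weights raised the genes called in OIR from 5 to 2769, the members called from 0 to 4 and those at an unadjusted p of 0.05 from 2 to 5 (all genes 12.7% to 36.6%), and in the difference of effects the values were 744, 1 and 2 (24.3%). Without *Atf6*+/+ OIR replicate 4 and *Atf6*-/- OIR replicate 5 they were 3909, 4 and 5 (38.8%) in OIR and 1718, 2 and 3 (26.7%) in the difference, and with the GC correction added 1893, 2 and 3 (27.8%) in OIR and 494, 0 and 2 (17.7%) in the difference. OIR calls were 9 without a filter and 11 in the fit of all 20 libraries, where 4 members had an unadjusted p of 0.05 or less (17.5% of all genes), and the GC correction left 1 such member (10.3%). After Ceapin-A7, such members numbered 1 with quantile normalization (10.4%), 1 with the GC correction (11.1%) and 1 in the fit of all 20 (8.69%), which called 1 gene. In the difference of effects they numbered 2 with FPKM as deposited (8.48%) and 0 with quantile normalization (9.43%). The exact permutation test put *Jag1* in OIR, at a log2 fold change of 0.25, past 0.05 without adjustment. Relations with cell type scores that passed numbered 0 instead of 4 in the P30 libraries, with the GC correction, and without the 2 farthest libraries. The share of higher genes among unadjusted calls was 54.4% in OIR, 30.5% with FPKM as deposited and 30.7% with TPM, and 48.7%, 57.4% and 26.8% after Ceapin-A7. The cause of these changes was not tested.

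Replicate numbers did not pair the samples. Deviations of same-numbered libraries correlated at −0.183, −0.258, −0.011, 0.21 and 0.0275 in OIR and at 0.31, −0.107, −0.0308, 0.00541 and −0.217 in the P30 retinas. With a replicate block, 5 genes were called in OIR, 0 after Ceapin-A7, 9110 between the ages and 3 in the difference of effects, and 3 members had an unadjusted p of 0.05 or less after Ceapin-A7, beside 10.4% of all genes. With the block and the GC correction, the difference of effects gave 2 genes, and such members numbered 1 in OIR (8.84% of all genes) and 3 after Ceapin-A7 (10.9%).

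Members near 0 changed sign. For *Notch2* in OIR the log2 fold change was −0.00268 as deposited, −0.00914 with TPM, −0.106 with array weights, −0.212 without the 2 libraries and −0.105 with the GC correction added. For *Dll1* in OIR it was 0.00584 with quantile normalization, 0.0549 with the GC correction (with or without the block) and 0.0526 with that correction and without the 2 libraries. After Ceapin-A7 *Hey1* was −0.0300 with TPM, and with array weights *Notch2* was −0.0137 and *Dll4* 0.0293. Between the ages *Notch2* was −0.0184 with TPM, −0.0608 with quantile normalization and −0.0650 with the GC correction, with or without the block, and *Notch1* was −0.0870 with that correction, with or without the block, and −0.0192 when the 2 libraries were also left out. In the difference of effects *Notch2* was 0.00729 with quantile normalization and 0.0266 with the GC correction, and *Jag2* was 0.0167 with it, both with or without the block, and 0.0703 when the 2 libraries were also left out.

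Leaving out 1 library at a time gave 5 to 9 genes in OIR (9 without *Atf6*-/- replicate 5), with 1 to 6 members at an unadjusted p of 0.05 (6 without *Atf6*-/- replicate 5, beside 25.5% of all genes, 5 without *Atf6*+/+ replicate 4, beside 24% of them, and 1 without *Atf6*+/+ replicate 1, *Atf6*+/+ replicate 2 or *Atf6*-/- replicate 1, beside 8.28%, 9.24% and 8.56%), 0 to 2 such members after Ceapin-A7 (2 without saline-treated replicate 2 or 3, beside 16.4% and 14.4%), and 3 to 12 genes (12 without *Atf6*-/- replicate 5) and 0 to 3 members (3 without saline-treated replicate 1, beside 9.68%) in the difference of effects. Log2 fold changes that changed sign ran from −0.105 to 0.0907 for *Notch2*, −0.0922 to 0.0430 for *Dll1* and −0.109 to 0.0673 for *Hes1* in OIR. After Ceapin-A7 they ran from −0.00900 to 0.110 for *Notch2*, −0.133 to 0.0852 for *Dll4*, −0.0545 to 0.140 for *Hes1* and −0.0456 to 0.0419 for *Hey1*. Between the ages they ran from −0.0528 to 0.166 for *Notch1*, −0.0627 to 0.126 for *Notch2* and −0.130 to 0.0191 for *Dll1*, and in the difference of effects from −0.138 to 0.0520 for *Notch2* and −0.175 to 0.0183 for *Hes1*. Without the 2 libraries together, the latter were −0.241 for *Notch2* and −0.216 for *Hes1*, and *Hes1* in OIR was −0.168. Values were deposited without counts, so counting error could not be given.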
